A study of Mus musculus and Homo sapiens with 22 samples.

Results

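The 48 mouse genes described here encode core proteins of the spliceosome, and they were taken as a fixed list of gene names from the 22667 genes counted in N2A cells, a mouse neuroblastoma line. They comprise 7 Sm ring genes, 3 U1 genes, 11 U2 genes, 11 genes of the U5 particle and the tri-snRNP, 6 genes of the Prp19-containing complex (NTC) and its partners, 7 helicase genes and 3 other splicing factor genes (Slu7, Cwc22 and Sugp1). The study used RNA-seq to examine how nSR100 (a neuronal SR-related splicing factor encoded by Srrm4), Ptbp1 (a polypyrimidine tract binding protein) and U2af65 (encoded by U2af2) act in alternative splicing. Of its samples, 6 processed N2A files are used here. Stable hairpin populations, kept under 2 ug/mL puromycin, carried a hairpin against GFP or against nSR100, and each of these files combined 2 sequencing runs. The other cells were transfected with a non-targeting siRNA pool (libraries a and b), a pool against U2af65 (1 library, letter a) or a pool against Ptbp1 (1 library, letter b) and harvested after 48 hours. The labels do not say whether the 2 control libraries are separate cultures, and the p-values therefore reflect a spread between libraries that could be purely technical. The values are reads per gene and describe mRNA levels, not exon inclusion or protein.

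The spliceosome is built from small nuclear ribonucleoproteins, the snRNPs, each made of a small RNA and its proteins. The Sm proteins form a ring on the RNAs of U1, U2, U4 and U5. U1 recognises the 5′ splice site, and U2 is brought to the branch site with the help of the U2AF heterodimer, where its SF3a and SF3b subcomplexes clamp the branch helix. The U4/U6.U5 tri-snRNP then joins, the NTC stabilises the active form, and a series of RNA helicases drives each rearrangement. These genes are expressed in every nucleated cell that splices its RNA.

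The files held 60220620 to 77138004 reads in genes. U2af2 stood at 113 and 105 RPKM in control libraries a and b and at 18.4 in the U2af65 siRNA library, Ptbp1 at 158 and 139 RPKM in the controls and 8.53 in the Ptbp1 siRNA library, and Srrm4 at 11.6 RPKM in the GFP hairpin file and 2.5 in the nSR100 hairpin file. RPKM is the read count of a gene scaled by its length and by the size of the library. Of 12 neuroblastoma and sympathetic lineage markers, 11 were at 1 RPKM or more in each of the 6 files, and the exception, Dbh, was at 1.26 to 21.0 RPKM in 5 files and at 0.54 in the nSR100 hairpin file. All 5 immune markers stayed under 1 RPKM in each file, with Ptprc listed at 0.

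Short stretches upstream of the start sites of 6 members are shown first, because the results below turn on these genes or, for Snrpb2, on the gene of a partner protein. Each is 30 bases from the RefSeq annotation of GRCm38.p6, on the strand of the gene, with the labelled motif in capitals. The stretches of Snrpb2 and Sf3b1 each also hold a further GC box, read on the opposite strand and left in lower case.
Snrpa1 (chr7:66060269-66060298, + strand, GC box read on the opposite strand): acttcacagtctCCGCCCcttgttgggtgg
Snrpb2 (chr2:143063029-143063058, + strand, ETS motif read on the opposite strand): tttggccgccctCTTCCGGcgcggggaagc
Sf3a2 (chr10:80798647-80798676, + strand, ETS motif): acgcctttgctcCCGGAAGggatcgcttcg
Prpf19 (chr19:10895151-10895180, + strand, ETS motif): ttggagcgctcgCCGGAAGaagccgagcca
Sf3b1 (chr1:55027534-55027563, - strand, GC box read on the opposite strand): gccgccgggagcCCGCCCtggccccgccca
Prpf31 (chr7:3629940-3629969, + strand, CCAAT box): atgtcgtaaacggCCAATcaaaacacagat

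RefSeq promoter windows, from 250 bases before to 50 after the start, were matched for 36 of the 48 genes and gave 42 windows. The ETS motif CCGGAAG, searched on both strands, was in 18 of these 42 windows (42.9%), which belong to 17 genes, against 18.4% of 11204 windows of tested genes and 8.86% of all 32851 windows. The GC box GGGCGG was in 21 windows (50%, against 64.3% and 35.7%) and CCAAT in 17 (40.5%, against 38.4% and 37.4%). The TATA box TATAAA was in 2 windows (4.76%, against 6.49% and 13.6%), those of Sf3b3 and Snrpa, and the YY1 motif AAGATGGCG was in 2 (4.76%, against 3.24% and 1.40%), those of Sf3a1 and Sugp1. Matches of different motifs may overlap, and these shares are descriptions of the letters in the windows, with no test.

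All 48 genes were expressed in every file. Their mean RPKM over the 6 files ran from 5.45 for Prpf4, a U4/U6 protein gene, to 239 for Snrpg, which encodes an Sm ring protein, and 44 of the 48 lay above 14.4 RPKM, the median of the 11510 genes that averaged 1 RPKM or more. All but Sf3b4 had at least 1000 reads in each file. Together they took 0.58% to 0.656% of all reads.

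The Sm genes had the highest levels per length of the 7 role groups, with a median of 166 RPKM, and ranged from 92.8 RPKM for Snrpd1 to 239 for Snrpg. The U2 genes had a median of 71.7 RPKM, from 6.07 for Sf3b4 to 99.5 for Sf3b3, both of the SF3b subcomplex. The U1 genes had a median of 69.3 RPKM, from 62.9 for Snrpa (U1-A) to 191 for Snrnp70 (U1-70K). The products of the Sm genes are shared by several snRNPs, whereas those of the U1 group are particular to U1. Levels in the catalytic groups were lower. The NTC genes had a median of 42.4 RPKM, with Crnkl1 lowest at 9.41 and the small NTC-related gene Bud31 highest at 98.8. The U5 and tri-snRNP genes had a median of 33.6 RPKM, from Prpf4 at 5.45 to Eftud2, the U5 GTPase gene, at 153. The helicase genes had a median of 29 RPKM, from 19.5 for Dhx8, which releases the spliced mRNA, to 87.1 for Dhx15, which acts in disassembly. Slu7, Sugp1 and Cwc22 lay at 20.1, 20.9 and 21.0 RPKM.

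Neighbours in these orders often did not differ beyond the spread of the controls. In the control siRNA libraries Snrpe averaged 179 ± 24.5 RPKM (SD, n = 2) and Snrpd3 177 ± 9.04, while Snrpg stood apart at 240 ± 14.6. Snrpc at 64.3 ± 6.23 and Snrpa at 56.2 ± 3.91 (SD, n = 2) were near each other and well under Snrnp70 at 196 ± 2.36. The order of the 48 genes was close between the mean of the control siRNA libraries and the GFP hairpin file (Spearman's rho 0.957 across 48 genes, which share library preparation and gene length and are not replicates). The highest of the 6 values was under 2 times the lowest for 42 genes. Eftud2 varied least, at 1.15 times, and Sf3b4, Sf3b5, Prpf31, Prpf4, Sf3b1 and Sf3a2 varied most, at 2.92, 2.62, 2.57, 2.41, 2.31 and 2.01 times.

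**Figure D1:**
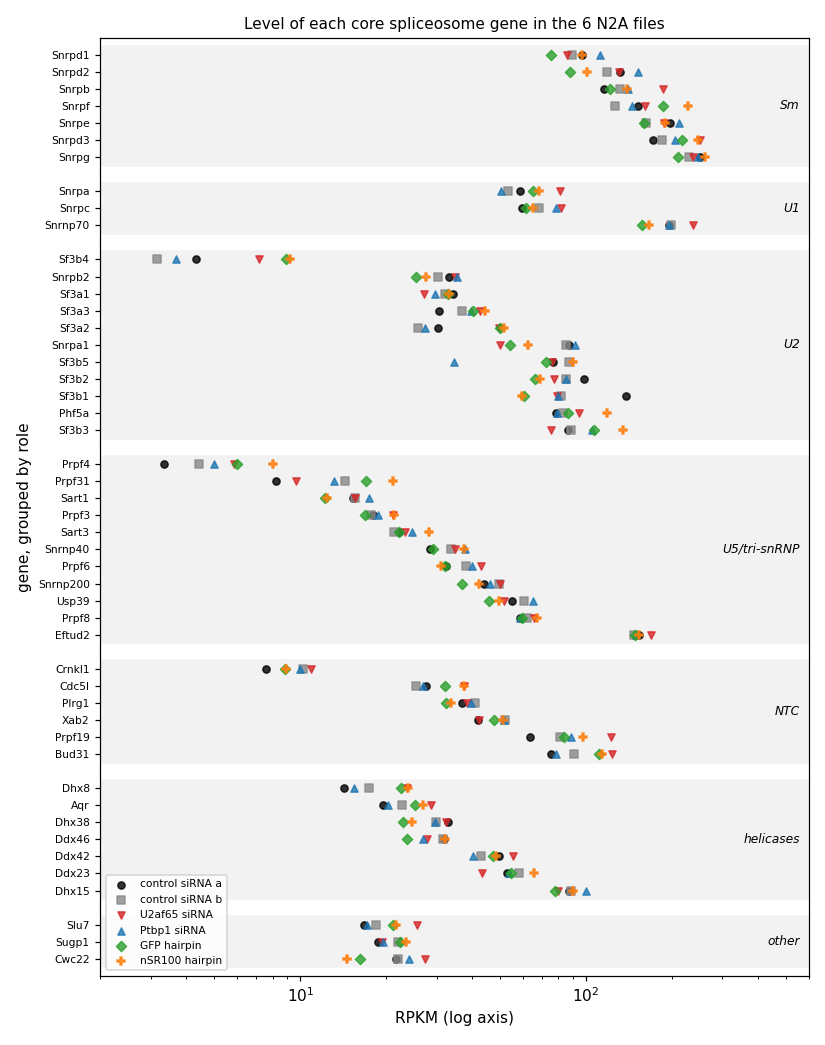
Level of each of the 48 genes (horizontal log axis, RPKM) in the 6 N2A files, 1 marker per file, with genes grouped by role and ordered by their mean. The markers of most genes lie close together, and single files stand apart for Sf3b5 (34.4 RPKM with Ptbp1 siRNA) and Sf3b1 (138 RPKM in control siRNA a).

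After U2af65 knockdown the mRNA levels of the core spliceosome differed from the controls by less, at the median, than those of all tested genes, and 1 of the 48 genes was called. Snrpa1, which encodes the leucine-rich A′ protein that binds U2 RNA together with the B″ protein, fell. None rose in edgeR's quasi-likelihood test, in which 5.24% of the 11237 tested genes were called. Of all tested genes 384 (3.42%) were called lower and 205 (1.82%) higher, and 578 lower and 580 higher when libraries were scaled by their totals alone. Read against that share, 1 of 48, or 2.08%, is not an excess of calls. With library totals 2 of the 48 (Sf3a2 and Prpf19) were called higher against 5.16% of all, and limma called 4 higher (these and Snrpb and Bud31) against 5.83%. An unadjusted p under 0.05 was reached by 5 of the 48 (10.4%) against 23.5% of all tested genes. The median log2 difference was 0.04 for the 48 genes and -0.0040 for all tested genes. Scaling by library totals moved these medians to 0.15 and 0.0953, and the median size of the difference, without its sign, was 0.24 against 0.35. Between the 2 controls, with TMM scaling, that median size was 0.15 for the 48 genes and 0.23 for all tested genes. The 48 genes thus differed less than all genes there too, without any knockdown.

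A difference past 1.5-fold was found for 5 of the 48 genes (10.4%) after U2af65 knockdown, against 28.6% of all tested genes and 24.9% of those averaging 5 RPKM or more. After Ptbp1 knockdown 1 of 48 passed 1.5-fold (2.08%), against 7.46% and 5.68%. The GFP hairpin file, a control, was also set against the mean of the control siRNA libraries on log2(RPKM + 1). There 10.4% of the 48 genes passed 1.5-fold, against 29.3% of 11934 genes with at least 1 RPKM in any of these files. Both knockdowns were set against the same 2 controls, so the counts are not independent. In bulk RNA, fewer cells of a type and less RNA per cell cannot be told apart.

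**Figure D2:**
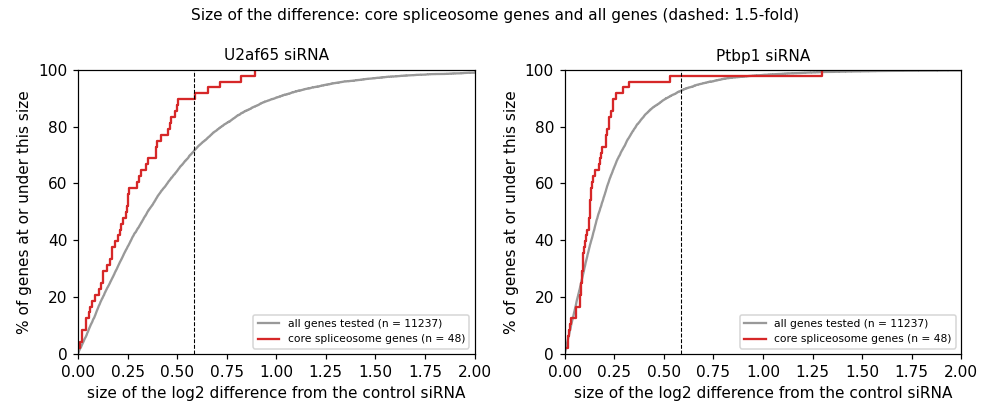
Share of genes (vertical axis, %) whose log2 difference from the control siRNA libraries is at or under a given size (horizontal axis), for U2af65 siRNA on the left and Ptbp1 siRNA on the right. The red line of the 48 core spliceosome genes rises before the grey line of all 11237 tested genes in most of both panels, and 5 and 1 of the 48 lie past the dashed line at 1.5-fold.

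Among the U2 genes, Snrpa1 stood at 87.4 and 85.1 RPKM in control libraries a and b, 49.9 with U2af65 siRNA, 91.3 with Ptbp1 siRNA, 54.2 in the GFP hairpin file and 62.4 in the nSR100 hairpin file. The U2af65 library was thus below both siRNA controls, and the GFP hairpin cells, which are also a control, were at nearly the same low level. Against the siRNA controls its log2 difference was -0.89, with an SE of 0.22 and a Benjamini-Hochberg adjusted p of 0.0479 in edgeR, which ranged from 0.00371 to 0.620 over the alternatives. The call was lost when genes had to average 5 RPKM (adjusted p = 0.0700) and with the GFP hairpin file added to the controls (adjusted p = 0.620). With that file added, 0 of all tested genes were called in either direction, the target U2af2 included, so this loss was not particular to Snrpa1. Its reads relative to the library total were 57.1% of control a (95% counting interval 54.9 to 59.4%, exact binomial) and 58.6% of control b (56.4 to 60.9%). These intervals cover counting error only. Snrpb2, the gene of its partner B″, stood at 33.2 and 30.4 RPKM in the controls and 34.7 with U2af65 siRNA. Its log2 difference was 0.02 with an SE of 0.22 (edgeR, adjusted p = 0.970).

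The SF3a and SF3b genes were spread on both sides of 0 after U2af65 knockdown. Sf3b1, the scaffold of SF3b that contacts the branch helix, had a log2 difference of -0.59 (SE 0.38), Sf3a1 one of -0.39 (SE 0.22), Sf3b2 one of -0.35 (SE 0.25), Sf3b3 one of -0.32 (SE 0.25) and Sf3b5 one of -0.21 (SE 0.22). On the other side, Sf3b4 had a difference of 0.82 (SE 0.50), Sf3a2 one of 0.72 (SE 0.23), Sf3a3 one of 0.24 (SE 0.21) and Phf5a one of 0.12 (SE 0.21). None of these 9 passed the test, with edgeR adjusted p of 0.105 or more.

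Sf3b4 and Sf3a2 were high in the same files. Sf3a2 stood at 30.4 and 25.7 RPKM in the siRNA controls, 49.7 with U2af65 siRNA, 27.4 with Ptbp1 siRNA, 50.2 in the GFP hairpin file and 51.8 in the nSR100 hairpin file. Sf3b4 stood at 4.33 and 3.15 RPKM in the siRNA controls, 7.15 with U2af65 siRNA, 3.67 with Ptbp1 siRNA, 8.90 in the GFP hairpin file and 9.19 in the nSR100 hairpin file. For both genes the U2af65 library lay above the siRNA controls and near or under the hairpin files. Sf3b4 rested on 109 to 303 reads, the fewest of the 48 genes. Sf3a2, singled out after its values were seen, was called higher by limma on log2(RPKM + 1) (adjusted p = 0.00930) and with library totals in edgeR (adjusted p = 0.0241), while its edgeR adjusted p with TMM scaling was 0.105.

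Sf3b1 differed most between the 2 controls. It stood at 138 RPKM in library a of the control, 81.8 in library b, 79.3 with U2af65 siRNA, 79.7 with Ptbp1 siRNA, 60.5 in the GFP hairpin file and 59.8 in the nSR100 hairpin file. Control a was the one high file. Against control b alone the log2 difference was -0.09 after U2af65 knockdown. Against control a alone, the control with the same letter as the U2af65 library, it was -0.96. Both differences are given with no test.

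**Figure D3:**
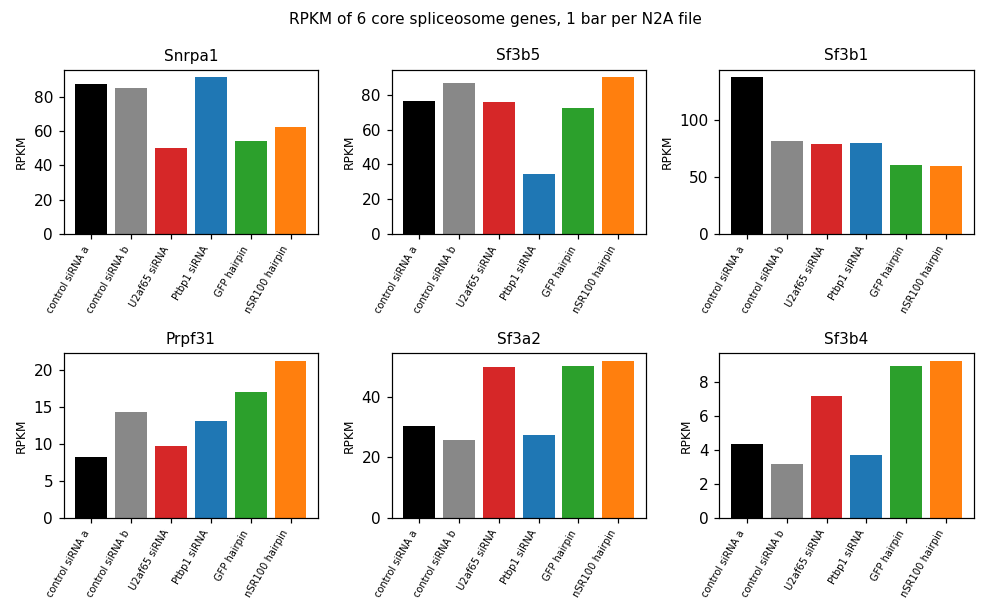
RPKM (vertical axes from 0) of Snrpa1, Sf3b5, Sf3b1, Prpf31, Sf3a2 and Sf3b4, 1 bar per N2A file and no error bars, since each bar is a single file. Snrpa1 is low with U2af65 siRNA (49.9) and in the GFP hairpin file (54.2), Sf3b5 is low with Ptbp1 siRNA (34.4), and Sf3b1 is high in control siRNA a (138).

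Among the Sm genes 3 of 7 differences were positive after U2af65 knockdown (5 of 7 with library totals, 6 of 7 against control b alone and 2 of 7 against control a alone). Their median was -0.04 and 0 were called. Snrpb, whose product SmB is the ring's largest protein, stood at 115 and 131 RPKM in the controls and 186 with U2af65 siRNA. Its difference was 0.50 with an SE of 0.21 (edgeR, adjusted p = 0.187). Snrpd3, whose protein pairs with SmB, had a difference of 0.40 (SE 0.20), and Snrpd1 was lowest of the ring at -0.23 (SE 0.22). limma on log2(RPKM + 1) called Snrpb higher (adjusted p = 0.0365). The neuronal copy of Snrpb, Snrpn, is a close match in sequence, and how reads shared by the pair were counted is not given in the sources used here.

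All 3 U1 genes had positive differences after U2af65 knockdown, under each of the 9 alternatives too, and 0 were called. Snrpa, which binds a stem-loop of U1 RNA, stood at 59.0 and 53.4 RPKM in the controls and 80.7 with U2af65 siRNA, which gave 0.42 on the log2 scale with an SE of 0.23 (edgeR, adjusted p = 0.314). Snrpc, which steadies the pairing with the 5′ splice site, had one of 0.25 and Snrnp70 one of 0.17.

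Of the U5 and tri-snRNP genes 6 of 11 had positive differences (9 of 11 with library totals and 4 of 11 with no filter), with a median of 0.02 and 0 called. Prpf8, the scaffold of the catalytic core, stood at 58.7 and 61.9 RPKM in the controls and 65.5 with U2af65 siRNA (log2 difference 0.02, SE 0.26). Snrnp200, the Brr2 helicase that unwinds U4 from U6, had a difference of -0.0034 (SE 0.24) and Eftud2 one of 0.06 (SE 0.27). The ends of the group were Prpf31 at -0.31 (SE 0.31) and Prpf4 at 0.50 (SE 0.29), both U4/U6 protein genes with low levels. Prpf31 differed between the controls, at 8.24 and 14.3 RPKM, and its 9.69 RPKM with U2af65 siRNA lay between them.

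In the NTC group 4 of 6 differences were positive, a count that each of the 9 alternatives gave again. The group median was 0.30 and 0 were called. Prpf19, the ubiquitin ligase after which the complex is named, stood at 63.8 and 81.2 RPKM in the controls, 122 with U2af65 siRNA, 88.5 with Ptbp1 siRNA, 83.6 in the GFP hairpin file and 97.7 in the nSR100 hairpin file. The U2af65 library was the highest of the 6. Its log2 difference of 0.66 (SE 0.22) did not pass in edgeR with TMM scaling (adjusted p = 0.113). It passed in edgeR with library totals (adjusted p = 0.0134) and in limma on log2(RPKM + 1) (adjusted p = 0.00495). Bud31 had a difference of 0.47 (SE 0.23), called only by limma among the tools run (adjusted p = 0.0486), and Xab2, an aquarius partner, was the lowest of the group at -0.25 (SE 0.21).

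The helicase genes were split, with 3 of 7 differences positive (4 of 7 with library totals) and 0 called. Ddx23, the U5 helicase that displaces U1, stood at 52.8 and 58.4 RPKM in the controls and 43.2 with U2af65 siRNA, which gave -0.46 with an SE of 0.22 (edgeR, adjusted p = 0.231). Dhx8 stood at 14.2 and 17.4 RPKM in the controls and 23.7 with U2af65 siRNA, which gave 0.49 with an SE of 0.21 (edgeR, adjusted p = 0.201). Ddx46, which acts with U2 at the branch site, had one of -0.30, Dhx15 one of -0.24, Dhx38 one of -0.06, Ddx42 one of 0.16 and Aqr, the intron-binding helicase, one of 0.34. Of the remaining genes, Slu7, which acts in the second catalytic step, had a difference of 0.45 (SE 0.21), Cwc22, which brings the exon junction complex to the spliceosome, one of 0.22 (SE 0.26), and Sugp1, a partner of U2 proteins, one of -0.17 (SE 0.23). None of these passed the test.

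In CPM, read counts scaled to library size with TMM, the U2af65 library lay above both controls for 22 of the 48 genes, below both for 15 and between them for 11. Over all tested genes 40.6% lay above both controls and 39.5% below both. For some other cell types the summed markers also moved with this library: 6 glial markers summed to 2.60 and 2.76 RPKM in the controls and 5.16 with U2af65 siRNA (Gfap, Aqp4, Sox10 and S100b under 1 RPKM in each file), and 5 endothelial and epithelial markers to 5.47, 5.92 and 9.99 RPKM (Cdh5, Epcam and Krt18 under 1 RPKM in each file). Their part in the differences above was not tested.

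**Figure D4:**
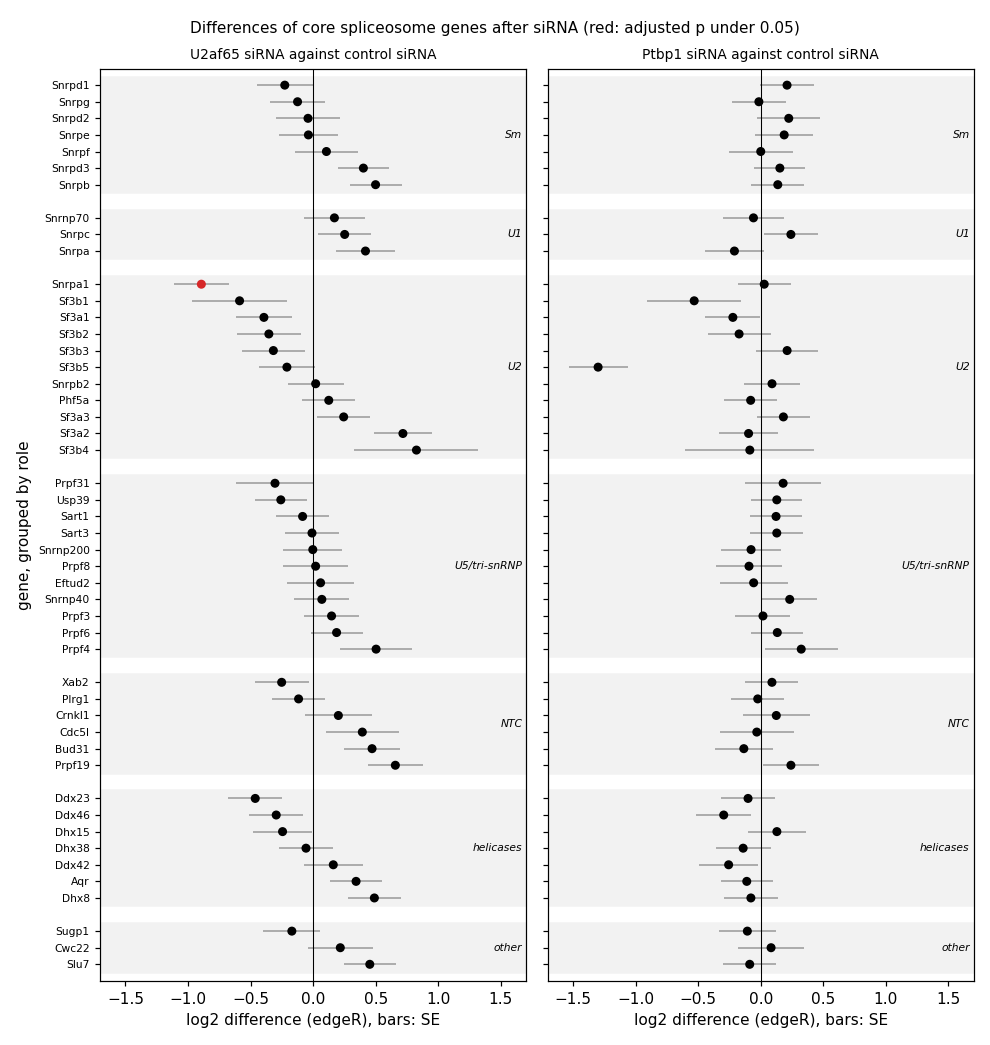
Log2 difference (horizontal axes, edgeR, bars 1 SE) of each of the 48 genes, grouped by role, for U2af65 siRNA on the left and Ptbp1 siRNA on the right, each against the same 2 control siRNA libraries. Snrpa1 on the left, at -0.89, is the 1 red point past the threshold, and Sf3b5 on the right, at -1.30, is the 1 point far from 0 and did not pass it.

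After Ptbp1 knockdown 47 of the 48 genes stayed within 1.5-fold of the controls, and Sf3b5 was the exception. With edgeR 0 of the 48 genes were called, against 0.0267% of all tested genes (3 genes), 1 of the 48 (2.08%) had an unadjusted p under 0.05 against 4.28% of all, and DESeq2 and limma each called 1 of the 48, Sf3b5, against 0.182% and 0.881% of all genes. The differences were positive for 24 genes and negative for 24 (27 and 21 with library totals), with a median of -0.0070 against 0.01 over all tested genes. The Ptbp1 library lay above both controls in CPM for 18 of the 48 genes, below both for 17 and between them for 13, where 34.8% and 28.9% of all tested genes lay above and below both.

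Sf3b5, a small subunit of SF3b, stood at 76.5 and 87.3 RPKM in the controls, 75.8 with U2af65 siRNA, 34.4 with Ptbp1 siRNA, 72.4 in the GFP hairpin file and 90.2 in the nSR100 hairpin file. The Ptbp1 library was thus below each of the other 5 files. In CPM the siRNA controls were at 57.5 ± 1.97 (SD, n = 2) and the Ptbp1 library at 23.4. The log2 difference was -1.30 (SE 0.24), and it did not pass edgeR's test over all genes, with an adjusted p of 0.336 that ranged from 2.67e-06 to 0.999 across the alternatives. DESeq2 (adjusted p = 0.00619), limma on log2(RPKM + 1) (adjusted p = 2.67e-06), edgeR with library totals (adjusted p = 0.00957) and edgeR with no filter on low values (adjusted p = 0.00132) called it. Relative to library totals, its 1648 reads were 39.5% of control b (95% counting interval 37.3 to 41.7%, exact binomial), the control with the same letter, and 45.0% of control a (42.4 to 47.8%).

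The other SF3b genes had smaller differences, none of them called. Sf3b1 had a log2 difference of -0.53 (SE 0.38) after Ptbp1 knockdown, with the high control a in its comparison. Sf3b2 had a difference of -0.17, Sf3b4 one of -0.09, Phf5a one of -0.08 and Sf3b3 one of 0.21. After Sf3b5 and Sf3b1, the most negative difference of the 48 was that of Ddx46, at -0.30 (SE 0.22). The most positive were those of Prpf4 at 0.32 (SE 0.29), Prpf19 at 0.24 (SE 0.22) and Snrpc at 0.24 (SE 0.21). All of these had edgeR adjusted p of 0.999. By role, 6 of 7 Sm genes had positive differences (5 to 7 over the alternatives), with a median of 0.15, and 8 of 11 U5 and tri-snRNP genes (7 of 11 with no filter), with a median of 0.13. Of the helicase genes 6 of 7 had negative differences (5 of 7 against control a alone or with the GFP hairpin file added), with a median of -0.11.

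The U2af65 and Ptbp1 libraries were also set directly against each other, a comparison added after the data were seen. Neither side of it uses the controls' levels. The U2af65 library carries letter a and the Ptbp1 library letter b, so knockdown and letter cannot be told apart here. None of the 48 genes was called by edgeR, against 3.62% of all tested genes, and 6 (12.5%) had an unadjusted p under 0.05 against 20.8% of all. Sf3b5 had a log2 difference of 1.09, higher with U2af65 siRNA (SE 0.26, edgeR adjusted p = 0.0519), and Snrpa1 one of -0.92 (SE 0.24, edgeR adjusted p = 0.0692). Neither gene was therefore shown to respond to one knockdown and not to the other.

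In the nSR100 hairpin file 45 of the 48 genes were higher than in the GFP hairpin file, each by a small amount. With 1 file per group there was no test. The median difference of log2(RPKM + 1) was 0.12 for the 48 genes and 0.03 for the 11877 genes with at least 1 RPKM in either file, of which 55.7% were higher. With TMM-scaled CPM, 42 of the 48 were higher, with medians of 0.09 and 0.0061, and 51.0% of all genes were higher. None of the 48 differed by 1.5-fold or more, against 6.79% of all genes.

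All 7 Sm genes were higher in the nSR100 hairpin file, by 0.18 to 0.37 on the log2(RPKM + 1) scale, all 7 helicase genes by 0.04 to 0.42 and all 6 NTC genes by 0.0044 to 0.22. With TMM-scaled CPM the Sm, helicase and U1 genes were again all higher, whereas Crnkl1 of the NTC, Sf3a1 and Sart1 turned lower. Phf5a, the PHD finger-like subunit of SF3b at the branch adenosine pocket, went from 86.4 to 118 RPKM, a difference of 0.44. Ddx46 went from 23.7 to 32.0 RPKM, a difference of 0.42. Snrpd1 went from 75.2 to 97.1 RPKM, a difference of 0.37. These were the largest of the 48, and Snrpd1 and Prpf4 (0.36, from 6.03 to 8.03 RPKM) were close together. The 3 genes that were lower were Cwc22, from 16.2 to 14.6 RPKM (-0.14), Prpf6, from 32.2 to 31.0 RPKM (-0.05), and Sf3b1, from 60.5 to 59.8 RPKM (-0.02). For Sf3b1 the ratio of reads to library totals was 98.8% (95% counting interval 97.1 to 100.6%, exact binomial), so that its levels could not be told apart at this depth.

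Other markers moved between the hairpin files too. Summed over 12 neuroblastoma and sympathetic markers the level was 1237 RPKM in the GFP hairpin file and 806 in the nSR100 hairpin file, and the sum of 5 fibroblast markers was 7.27 and 12.2 RPKM, with Col1a1, Col1a2 and Lum under 1 RPKM in each file. In the 4 siRNA libraries the fibroblast sum was 0.41 to 0.84 RPKM. Their part in the small increase of the 48 genes was not tested.

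**Figure D5:**
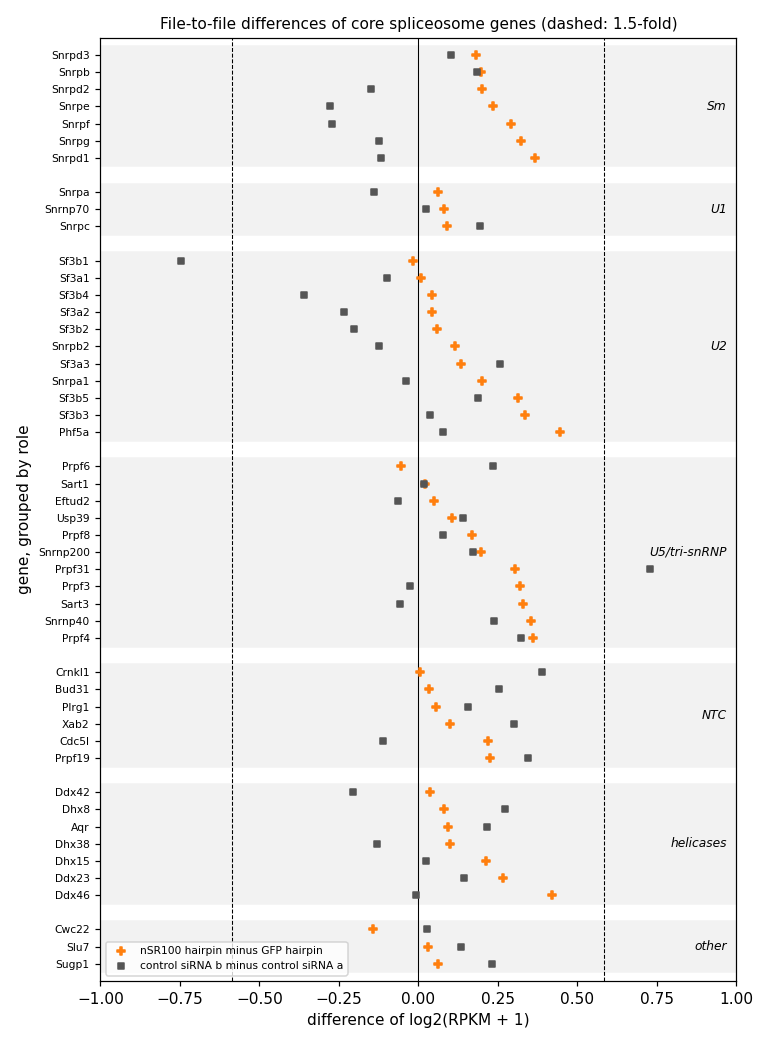
Difference of log2(RPKM + 1) (horizontal axis) of each of the 48 genes, grouped by role, between the hairpin files (orange crosses) and between the 2 control siRNA libraries (grey squares), with no error bars since each is 1 file against 1. The crosses lie right of 0 for 45 genes and inside the dashed lines at 1.5-fold for each gene, while the squares of Sf3b1 and Prpf31 lie outside them.

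The 2 control siRNA libraries share the non-targeting pool but differ in letter, and each letter is also that of 1 knockdown library. They differed past 1.5-fold at 2 of the 48 genes (4.17%), against 11.0% of the 11350 genes with at least 1 RPKM in either. Sf3b1 was lower in control b by 0.75 on the log2(RPKM + 1) scale and Prpf31 was higher by 0.73. The median of the 48 genes was 0.03 and that of all genes 0.15 for control b minus control a. After TMM scaling the medians were -0.09 and 0.04 on the log2 CPM scale, so on both scales the 48 genes lay about equally far below the shift of all genes. Between the controls, 5 of 7 Sm genes were lower in library b (6 of 7 after TMM scaling) and 5 of 6 NTC genes were higher on both scales, with medians of -0.12 and 0.28 on the log2(RPKM + 1) scale. On one scale, log2(RPKM + 1), the NTC gap between controls of 0.28 stood beside a median difference of 0.38 after U2af65 knockdown, and on the TMM scale 0.16 stood beside 0.30.

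Other genes of the splicing machinery were looked at through 7 further lists with 83 names, of which 82 were in the files and 81 were tested. These lists, like the 48 genes, were chosen with earlier results of these data known. After U2af65 knockdown 3 of the 81 rose and 1 fell, or 4.94% in all, which is near the 5.24% of all tested genes that were called, and after Ptbp1 knockdown 0 were called by edgeR. Their median log2 difference after U2af65 knockdown was 0.11, against -0.0040 over all tested genes. The gene that fell was U2af2 itself, the target. Of 15 genes of snRNP assembly, among them those of the SMN complex, which loads Sm rings onto snRNAs, 12 had positive differences (80%, against 49.6% of all tested genes) and 2 rose (13.3%, against 1.82% of all), with a median of 0.34. Wdr77, whose protein works with Prmt5 to methylate Sm proteins, was at 66.1 and 72.6 CPM in the controls and 142 with U2af65 siRNA, and it rose by 1.04 with an SE of 0.20 (edgeR, adjusted p = 0.0264). Gemin4 was at 11.5 and 20.6 CPM in the controls and 44.4 with U2af65 siRNA, and it rose by 1.47 (SE 0.35, edgeR adjusted p = 0.0437). Txnl4a, a small U5 protein gene and 1 of 13 further tri-snRNP and B complex genes, was at 32.0 and 28.3 CPM in the controls and 57.8 with U2af65 siRNA, and it rose by 0.94 (SE 0.23, edgeR adjusted p = 0.0491).

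These calls did not all hold under other settings. With the GFP hairpin file added to the controls, none of Wdr77, Gemin4 and Txnl4a passed in edgeR (adjusted p = 0.760, 0.632 and 0.411). That fit called 0 of all tested genes in either direction, the target U2af2 included, so these losses were not particular to the genes named. Gemin4 and Txnl4a were also lost when genes had to average 5 RPKM (adjusted p = 0.0695 and 0.0636). Against control b alone the difference of Gemin4 was 1.11 and against control a alone 1.95. In the other 6 lists edgeR called no gene apart from U2af2 and Txnl4a, and median differences with U2af65 siRNA were -0.05 for 7 LSm genes, -0.0075 for 8 minor spliceosome genes, 0.07 for 13 genes of U2 auxiliary and associated factors, 0.15 for the 13 tri-snRNP and B complex genes, 0.05 for 17 genes of NTC partners and the catalytic steps, and -0.04 for 8 exon junction complex genes.

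Of the 48 genes 13 overlap another RefSeq gene, 6 of them a protein-coding one. Since strand use in counting is not given in the sources used here, reads of these pairs cannot be told apart. Snrpa1, Sf3b5, Sf3b1, Sf3a2 and Prpf19 are not among the 13. Prpf31 overlaps a long non-coding RNA gene, Sf3b4 a small nucleolar RNA gene, Bud31 the gene Ptcd1 and Snrpa the gene BC024978.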

How the data were processed

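RNA was made into Illumina mRNA libraries, per the labels' protocols. The deposited files list Ensembl genes with the read counts and RPKM that the authors computed, with no RPKM for 1114 genes. The submitters' processing notes list Bowtie, bedtools 2.17.0, hg19 and mm9 without saying what each was used for. The counting rule, strand use and annotation version are not given in the sources used here. Symbols were matched to 20759 of 22667 identifiers, and all 48 members were found and tested. The human 293T files and the crosslinking libraries were not used here.

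Read counts of the siRNA libraries were fitted together in edgeR 4.0.16 (R 4.3.3, TMM scaling) for the 11237 genes averaging 1 RPKM or more. The fit had 1 residual and 8.65 prior degrees of freedom. The spread used for a gene therefore came mostly from the control pair's spread over all genes, and less from that gene's own control values. A single knockdown library was taken to have that same spread. Adjusted p-values are Benjamini-Hochberg over all tested genes, with a threshold of 0.05. The SE is approximate, the log2 difference divided by the square root of F. Single files were compared on log2(RPKM + 1), which understates the change of low genes, with 1.5-fold (0.585 on the log2 scale) as the limit. DESeq2 1.42.0 and limma 3.58.1 were alternatives. The members and lists were chosen with earlier results of these data known. By rule the genes named were called members, the extremes of each role group in level and in U2af65 difference, the 3 largest and smallest differences after Ptbp1 knockdown and between hairpin files, members past 1.5-fold between controls, the targeted genes, and called genes of the further lists. Others were chosen after their values were seen.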

Additional observations from a re-analysis of the deposited data

How the results depend on the processing

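The limits come first from the design. Each knockdown is 1 library, the spread comes from 2 controls, and calls in fits with the GFP hairpin file added also carry the difference between hairpin and siRNA cells. No paired analysis was possible because each siRNA knockdown shares only 1 letter with the controls and the numbered hairpin runs were combined into 1 file each. Leaving out either control leaves no residual degrees of freedom, so it gave differences with no test: Snrpa1 after U2af65 knockdown was -0.97 to -0.81, and Sf3b5 after Ptbp1 knockdown -1.34 to -1.26.

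After U2af65 knockdown the count of core spliceosome genes called lower went from 1 to 0 at an average of 5 RPKM or more and with the GFP hairpin file added, and the count called higher went from 0 to 2 with library totals and to 4 with limma. After Ptbp1 knockdown the count called lower went from 0 to 1 (Sf3b5) with library totals, without a filter, with DESeq2 and with limma. Over all genes after U2af65 knockdown, 384 lower and 205 higher became 578 and 580 with library totals, 961 and 688 without a filter, 183 and 74 at an average of 5 RPKM or more, 706 and 339 with DESeq2, 630 and 655 with limma, and 0 and 0 with the GFP hairpin file added. Over all genes after Ptbp1 knockdown, 3 lower and 0 higher became 72 and 14, 91 and 8, 1 and 0, 19 and 1, 70 and 29, and 0 and 0 in that order. The causes of these changes were not tested. The counts past 1.5-fold between hairpin files (0) and between controls (2) were the same under each alternative run.

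Of the 48 differences, 10 after U2af65 knockdown and 9 after Ptbp1 knockdown changed sign in at least one other fit with a test, none of them called on either side and none larger than 0.11 and 0.18 with TMM scaling in edgeR. Against a single control 11 and 13 changed sign, the largest being Prpf31 after U2af65 knockdown, from -0.31 to 0.07. Of the genes named by rule, U2af2 and those of the further lists included, sign changes in such fits took these values. With the GFP hairpin file added they were, after Ptbp1 knockdown, Prpf31 (-0.0018), Snrnp70 (0.0673), Snrpg (0.0753), Gemin4 (-0.0547), U2af2 (0.10) and Wdr77 (-0.43). Snrpg was at 0.0415 with library totals and 0.0426 with limma, and U2af2 at 0.0482 and 0.0487. Without a filter, Eftud2 after U2af65 knockdown was at -0.0036.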
